A study of Drosophila melanogaster with 2 samples.

Results

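The X chromosome promoter peaks were the peaks of the series' main list that lay on the X chromosome and whose summit fell within 500 bp of an annotated transcription start site (TSS). There were 1011 of them, out of 1386 X chromosome peaks and out of 7543 peaks on all 7 chromosome arms. The choice used position alone and no measured height. The same rule found 4707 promoter peaks on 2L, 2R, 3L and 3R, called the autosome arms here.

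The peaks came from chromatin immunoprecipitation sequencing (ChIP-seq) of the Drosophila melanogaster protein MBD-R2. The material was whole embryos, 0 to 24 h old, from the transgenic strain MBD-R2-GFP, which carries MBD-R2 fused to eGFP. The fusion protein was pulled down with an antibody against GFP. The main list drew on both replicates, and the authors also deposited a stricter conservative list and a list for each replicate alone, all cut at a threshold on how reproducibly peaks rank. There was 1 group, with 2 biological replicates, so each comparison below is between sets of peaks or genes, or between the replicates.

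Several features of the material limit what a peak can show. The sex of the embryos was not collected, so X chromosomes of male and female embryos were not separated. A whole embryo is a mixture of cell types and of stages, and a peak bound in fewer cells and a peak bound more weakly in each cell cannot be told apart. Every library carried the tagged protein, and control libraries were not analysed here. The labels do not say how many embryos were pooled or whether the untagged protein was also present.

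MBD-R2 belongs to the NSL complex, named for non-specific lethal mutants. The complex binds promoters of genes used by most cells, on the X chromosome and on autosomes, in both sexes. It contains MOF, a histone H4 acetyltransferase. MOF also works in the MSL complex, named for male-specific lethal mutants, which contains the roX RNAs and spreads over active genes of the male X chromosome in dosage compensation. Promoters of widely used fly genes often carry the DRE, to which the factor DREF binds, or Motif 1, to which the factor M1BP binds. Promoters of genes used in particular tissues more often carry a TATA box.

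The promoters below are shown because they stand for the strings that differed in frequency between bound and unbound X genes, and for the strongest peak and a pair of duplicated genes. Bound genes are those with at least 1 TSS no more than 500 bp from a main-list summit. Each stretch runs 5′ to 3′ in the sense of the gene, from up to 120 bases before the TSS to 30 bases from it on, in RefSeq sequence of the dm6 assembly. It was cut short where it would have run more than 30 bases into another exon upstream. Capitals mark any match to TATCGATA (DRE), GGTCACAC (Motif 1 core), CAGCTG (E-box) or GAGAGAGA (GA repeat) on either strand, and TATAAA on the gene's own strand from 40 to 15 bases before the TSS. The bound genes dod (a prolyl isomerase), CG15814, Top3beta (a topoisomerase) and car (a vacuolar sorting protein) show DRE, Motif 1 and E-box strings.
dod, chrX:21345238-21345387, plus strand: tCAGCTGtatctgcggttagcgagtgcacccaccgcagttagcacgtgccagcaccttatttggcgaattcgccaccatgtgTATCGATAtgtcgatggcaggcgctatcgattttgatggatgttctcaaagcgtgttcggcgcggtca
CG15814, chrX:17850313-17850462, minus strand: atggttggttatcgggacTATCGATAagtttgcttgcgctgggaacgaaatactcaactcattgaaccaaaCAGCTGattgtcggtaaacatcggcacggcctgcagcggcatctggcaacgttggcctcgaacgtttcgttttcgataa
Top3beta, chrX:6287961-6288110, minus strand: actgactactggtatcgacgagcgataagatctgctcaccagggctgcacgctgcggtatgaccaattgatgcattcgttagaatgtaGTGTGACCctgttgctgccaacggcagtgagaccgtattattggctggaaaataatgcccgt
car, chrX:19566097-19566212, plus strand: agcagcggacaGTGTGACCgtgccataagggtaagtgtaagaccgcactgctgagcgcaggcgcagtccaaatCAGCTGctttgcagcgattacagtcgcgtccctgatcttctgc
The bound gene lncRNA:roX2, 1 of the roX RNAs, has a Motif 1 core just after its TSS.
lncRNA:roX2, chrX:11578945-11579094, plus strand: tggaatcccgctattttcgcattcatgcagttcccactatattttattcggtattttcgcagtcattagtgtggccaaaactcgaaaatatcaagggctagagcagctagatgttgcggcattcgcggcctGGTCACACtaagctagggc
Ugalt, a transporter of UDP-galactose into the Golgi, has the strongest peak and none of these strings here.
Ugalt, chrX:2703823-2703972, minus strand: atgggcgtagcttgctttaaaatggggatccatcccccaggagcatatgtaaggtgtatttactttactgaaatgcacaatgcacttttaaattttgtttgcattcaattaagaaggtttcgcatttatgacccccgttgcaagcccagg
The unbound genes are Cp36 (an eggshell protein) and gt (the gap factor giant), each with a TATA box, and Yp1 (a yolk protein), which has a DRE string and no peak. The Yp1 stretch also holds TATAAA, but after the annotated TSS and so outside the range searched.
Cp36, chrX:8479199-8479348, plus strand: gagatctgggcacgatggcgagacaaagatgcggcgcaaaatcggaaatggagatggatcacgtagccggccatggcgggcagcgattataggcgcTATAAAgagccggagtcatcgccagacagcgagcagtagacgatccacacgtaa
gt, chrX:2428938-2429087, minus strand: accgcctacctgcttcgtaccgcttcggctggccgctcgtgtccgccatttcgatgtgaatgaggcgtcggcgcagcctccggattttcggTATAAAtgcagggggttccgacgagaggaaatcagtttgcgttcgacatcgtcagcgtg
Yp1, chrX:10053691-10053840, plus strand: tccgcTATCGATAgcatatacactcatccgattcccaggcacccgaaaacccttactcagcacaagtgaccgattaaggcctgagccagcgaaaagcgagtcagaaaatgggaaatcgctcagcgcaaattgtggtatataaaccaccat
The duplicated Polycomb-group genes ph-p and ph-d both have peaks, of very unequal signal. Their stretches of 150 bases are 10 single-base edits apart. None of the 50-base stretches within 100 bp of the TSS shown for ph-d was repeated elsewhere in the genome. For ph-p repeats were counted at its 5′-most TSS, which is not the one shown.
ph-p, chrX:2136826-2136975, minus strand: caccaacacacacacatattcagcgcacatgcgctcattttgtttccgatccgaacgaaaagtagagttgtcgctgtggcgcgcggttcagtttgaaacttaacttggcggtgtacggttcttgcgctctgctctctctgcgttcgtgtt
ph-d, chrX:2123257-2123406, minus strand: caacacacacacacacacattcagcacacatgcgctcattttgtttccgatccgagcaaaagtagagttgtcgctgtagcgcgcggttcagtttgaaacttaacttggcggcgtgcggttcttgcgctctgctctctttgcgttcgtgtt

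Along X, 72.9% of summits lay within 500 bp of a TSS (Wilson 95% interval 70.5 to 75.2%), against 76.9% on the autosome arms and 76.2% over all arms. Replicate 1's own list gave 87.8% on X from 620 promoter peaks, and replicate 2's own list gave 73.1% from 1001. The share over the replicates was 80.4% ± 10.4 (SD, n = 2). The X share was lower than the autosomal one in each list, since the autosome arms had 92.4% in replicate 1 and 76.8% in replicate 2. Intervals here cover counting error over peaks or genes only.

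The signal of a peak is the value given by the authors' peak caller, with no stated scale, and it is used here only to rank and describe peaks of a list. Over the X promoter peaks it ran from 3.82 to 1790, with a median of 119. At 978 of these peaks both replicates had a peak in their own rankings, and Spearman's correlation of their signals was 0.70, over peaks that share both libraries. The median under the X promoter peaks was 48.5 in replicate 1 and 77.8 in replicate 2, and replicate 2 was the higher at 879 peaks. These values are not normalised for depth, which is unknown.

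Support from the replicates differed with the signal. The lists of both replicates held 608 of the 1011 peaks, whose median signal in the main list was 160. Another 302 were in the list of replicate 2 only, with a median of 85.6, and 28 in that of replicate 1 only, with a median of 87.9. The remaining 73 were in neither, with a median of 59.0. Of the 192 peaks with a signal of 200 or more, 97.4% were in both lists, as were 74.3% of the 424 from 100 to 200 and 20% of the 310 from 50 to 100. Below that the order turned, with 38.8% of the 49 peaks from 20 to 50 and 69.4% of the 36 below 20 in both.

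All 36 X promoter peaks with a signal below 20 had a stronger X summit within 500 bp. A replicate peak that overlaps such a weak summit is often the stronger neighbour's, so replicate values are not given for them. Of the 49 peaks from 20 to 50, 22 had a stronger summit within that distance, and of those at 200 or above, none had one.

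Summits lay close to start sites. Of the 1011, 448 (44.3%) were within 50 bp of the nearest TSS and 666 (65.9%) within 100 bp, against 68.1% within 100 bp on the autosome arms. The middle of the distribution ran from 70 bp upstream (the lower quartile, -70 bp) to 54 bp downstream (the upper quartile), with a median of -4 bp. Median signal was 134 for summits within 50 bp, 117 from 51 to 100 bp, 96.1 from 101 to 250 bp and 96.0 from 251 to 500 bp. Signals at the limit of the rule varied widely. Just inside were Pp2C1 at 500 bp with a signal of 66.1, Pp2B-14D at 499 bp with 81.0 and, all at 498 bp, RhoGAPp190 with 49.7 and a pair of peaks at lncRNA:CR44619 with 845 and 545. Just outside were tay at 502 bp with 63.1, D2hgdh at 507 bp with 35.0 and CycD at 513 bp with 101.

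**Figure D1:**
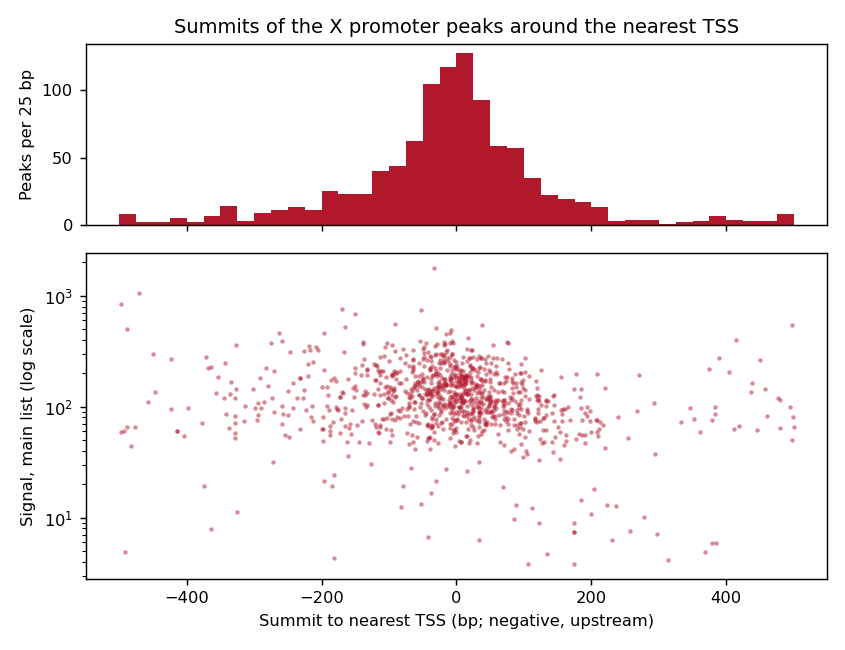
Upper panel: number of X promoter peaks per 25 bp of distance from the summit to the nearest TSS, negative upstream. Lower panel: signal of each of the 1011 peaks in the main list (log scale) against the same distance; the densest part lies within 50 bp (448 peaks), and the strongest peak, at Ugalt, sits at -33 bp with a signal of 1790.

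The strongest X promoter peak was that of Ugalt. Its signal was 500 in replicate 1 and 1295 in replicate 2, and 1790 in the main list. The peak of ph-p, which encodes a subunit of the Polycomb repressive complex, came next, with 322 in replicate 1, 812 in replicate 2 and 1052 in the main list. Its summit lay 470 bp upstream of the TSS of the stretch printed above. A further ph-p peak, with a signal of 400, lay 415 bp downstream of another, 5′-most TSS of the gene, so both summits fell between these start sites. Both genes were the highest 2 on X in each replicate's values as well.

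By contrast, the peak of ph-d, the neighbouring copy of ph-p, reached 63.6 in the main list, 12.1 in replicate 1 and 56.2 in replicate 2. It was not in the list of replicate 1. Its summit lay 104 bp upstream of its TSS, so the summits of the copies did not fall at matching places.

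The third strongest peak had only a long non-coding RNA, lncRNA:CR44619, within 500 bp. Its peaks straddled the TSS, 1 of them 498 bp upstream with a signal of 845 and the other 498 bp downstream with 545. In replicate 1 they had 264 and 142, and in replicate 2 they had 553 and 392. Both lie at the outer limit of the rule.

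The rest of the highest 20 included metabolic and secretory genes. MFS10, a membrane transporter, had a signal of 760, with 227 in replicate 1 and 538 in replicate 2. Gapdh2, a glycolytic enzyme, had 687, with 143 in replicate 1 and 539 in replicate 2. TRAM, a protein of the secretory translocon, had 559, and sicily, an assembly factor of respiratory complex I, had 544. The pair c12.2 and c12.1 shared a peak of 748, whose replicate values of 317 and 419 were the least unequal of these.

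Further peaks among the 20 belonged to moody (522), a receptor of the blood-brain barrier, to dod (508) and to the pair mldr and Rpt4 (496), the last a proteasome ATPase. Top3beta shared its peak of 463 with wuho, a partner of a tRNA methyltransferase. The neuronal RNA-binding protein elav had 459, as had the transcription factor Atf3. CG15814 and Spt7, a subunit of the SAGA complex, shared the last, with 395. All 20 peaks were in the lists of both replicates and in the conservative list.

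X promoter peaks had a lower signal than those of the autosome arms. No adjustment was made here for the number of X copies, which differs between male and female embryos. The difference therefore cannot be read as binding per copy, and its cause was not tested. The median signal on X was 119, against 145 on 2L, 144 on 2R, 136 on 3L and 143 on 3R, and 141 over the autosome arms together. Under the same main-list peaks the X median was 48.5 in replicate 1 and 77.8 in replicate 2, against 56.8 and 92.1 on the autosome arms. The log2 difference was -0.23 in replicate 1 and -0.24 in replicate 2, a mean of -0.24 ± 0.01 (SD, n = 2). Taken from each replicate's own thresholded list instead, it was -0.22 and -0.25. The replicates thus gave the same sign and nearly the same size, but no p is given, since an exact sign permutation of 2 values has a smallest p of 0.5.

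The gap was wider among strong peaks than among weak ones. At the 0.1 quantile the signal was 54.7 on X and 55.7 on the autosome arms, a log2 difference of -0.03. At the lower quartile it was 77.8 on X and 86.0 on the autosome arms, and at the upper quartile 180 on X and 224 on the autosome arms, a log2 difference of -0.32. X held 18.4% of all main-list peaks, 12 of the 100 strongest and 117 of the 1000 strongest.

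The difference varied with the class of peak. At divergent coding pairs the median was 140 on X and 185 on the autosome arms, with log2 differences of -0.39 in replicate 1 and -0.43 in replicate 2. At peaks with 1 coding gene it was 115 on X and 127 on the autosome arms, with -0.14 in replicate 1 and -0.15 in replicate 2. At the 49 X peaks with 2 or more coding genes in another arrangement it was 118, against 159 at 273 such peaks of the autosome arms, with -0.41 in replicate 1 and -0.38 in replicate 2. With summits within 50 bp of a TSS the median was 134 on X and 176 on the autosome arms, a mean log2 difference over replicates of -0.37 ± 0.03 (SD, n = 2). With summits at 51 to 500 bp it was 104 on X and 112 on the autosome arms, a mean of -0.09 ± 0.05 (SD, n = 2).

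Away from promoters the sign was the opposite. The 375 X peaks more than 500 bp from any TSS had a median of 87.8, against 77.8 for the 1414 such peaks of the autosome arms. The log2 difference was 0.06 in replicate 1 and 0.23 in replicate 2, a mean of 0.14 ± 0.12 (SD, n = 2), so its size was little more than the spread between replicates.

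**Figure D2:**
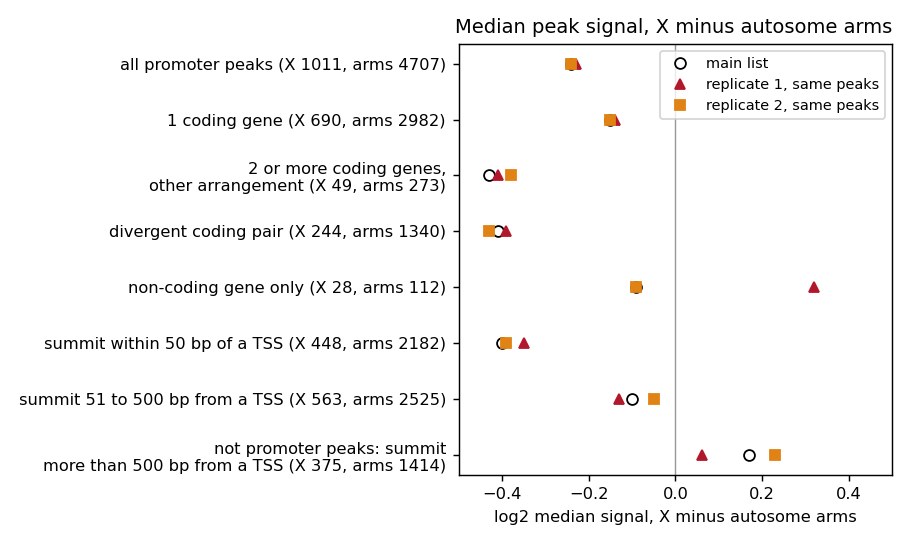
Log2 difference of median signal between X and the autosome arms for classes of peaks, in the main list (open circles) and in replicate 1 (triangles) and replicate 2 (squares) under the same peaks, with the number of peaks in each class. Divergent pairs (-0.39 and -0.43 in the replicates), peaks with 2 or more coding genes in another arrangement (-0.41 and -0.38) and summits within 50 bp lie to the left of the other classes, and peaks more than 500 bp from a TSS lie right of 0; the 28 X peaks with only a non-coding gene differ in sign between the replicates (0.32 and -0.09).

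Most X promoter peaks had 1 coding gene within 500 bp (690 peaks, 68.2%, against 63.4% on the autosome arms). Another 244 (24.1%, against 28.5% on the autosome arms) had both genes of a divergent coding pair within 500 bp of the summit. The start sites of such a pair face away from each other within 500 bp. There were 49 with 2 or more coding genes in another arrangement, and 28 with non-coding genes only. The peak with the most coding genes covered CG33932, Rpp20, COX6B and CG18809, and had 378 in the main list, with 177 in replicate 1 and 207 in replicate 2. It had 4 genes within reach of its summit, so it cannot be assigned to 1 of them.

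Of the 2196 protein-coding genes of X, 1041 (47.4%, Wilson 95% interval 45.3 to 49.5%) were bound, against 43.6% on the autosome arms and 44.0% over all arms. The arms ran from 41.2% on 2L to 44.6% on 2R, below the X share. In the list of replicate 1, 33.5% of X coding genes were bound, against 33.4% on the autosome arms and 33.2% over all arms. In the list of replicate 2 it was 45.9%, against 43.1% on the autosome arms and 43.5% over all arms. The difference was 3.83 percentage points in the main list, 0.0652 in replicate 1 and 2.76 in replicate 2, a mean of 1.41 ± 1.90 (SD, n = 2), which is smaller than the spread between replicates.

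A gene called unbound was not always without signal. Of the 1155 unbound X coding genes, 767 (66.4%) had a summit within 500 bp in the main ranking before the threshold on reproducibility. The list of replicate 1 bound 9 of them and that of replicate 2 bound 54. Unbound therefore means only that no peak passed the threshold of the main list.

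Binding varied with gene structure. Of the 510 X coding genes with a divergent partner, 443 (86.9%) were bound, against 80.5% of such genes on the autosome arms. Of the other 1686, 598 (35.5%) were, against 31.0% on the autosome arms. Among 259 divergent pairs on X, 218 had both genes bound, 14 had 1 gene bound and 27 had none. Since 1 summit between the start sites binds both genes by the rule, the pairs are not separate observations of each gene.

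Genes with 1 TSS were bound in 41.8% of cases, those with 2 in 59.6% and those with 3 or more in 60.2%. More start sites give a summit more chances to lie within 500 bp. Of genes up to 1000 bp long, 21.2% were bound, of those from 2000 to 5000 bp 59.7%, and of those over 20000 bp 47.5%. Among X genes with a single exon 27.8% were bound and among those with several exons 50.7%. Genes known only by a CG number were bound in 34.9% of cases and those with a name in 58.3%.

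Non-coding genes were bound less often. Of 483 ncRNA genes on X, 67 were bound, and of the 393 of these with no coding TSS within 500 bp, 31. Of 74 pseudogenes 8 were bound, of 31 snoRNA genes 3 and of 24 tRNA genes 2. None of the 3 rRNA and 2 snRNA genes was bound.

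Promoter strings were compared at the 5′-most TSS, from 250 bp before it to 50 bp after it, with binding called at that TSS alone (993 bound X genes and 1203 unbound). TATCGATA was in 23% of bound X promoters and 5.90% of unbound ones, against 17.7% of bound and 2.04% of unbound promoters on the autosome arms, and in 9.36% of all 13865 promoters. GGTCACAC was in 16.9% of bound and 1.75% of unbound X promoters, and in 7.72% of all. CAGCTG was in 21% of bound and 11.9% of unbound X promoters, and in 17.7% of all. A match is a string of letters and not a shown binding site.

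Other strings ran the opposite way. TATAAA at 40 to 15 bp before the TSS was in 1.71% of bound and 8.81% of unbound X promoters, and in 7.82% of all. GAGAGAGA was in 2.01% of bound and 3.41% of unbound X promoters, and in 3.04% of all. Bound X promoters with CAGCTG had a median signal of 170, against 135 without it, whereas with TATCGATA it was 147, against 138 without. Matches of different strings may overlap. The median GC content of the same window was 37.7% in bound and 40.3% in unbound X promoters, against 35.7% in bound and 40% in unbound promoters of the autosome arms.

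**Figure D3:**
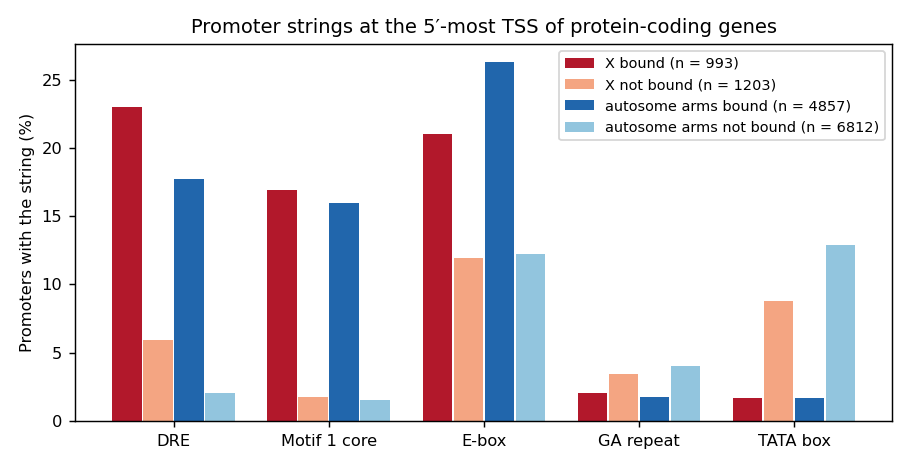
Share of promoters (250 bp before to 50 bp after the 5′-most TSS) of protein-coding genes that hold each string, for bound and unbound genes of X and of the autosome arms; the TATA box was searched from 40 to 15 bp before the TSS on the gene's own strand. The DRE string stands at 23% in bound and 5.90% in unbound X promoters, and the TATA box at 1.71% and 8.81%.

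Genes of the general machinery of cells were bound more often than X genes as a whole. Over 14 lists of such genes, 72 of 90 X genes (80.0%) were bound, against 47.4% of all X coding genes and 78.8% of the autosomal genes of the same lists. In replicate 1's list 61.1% were bound and in replicate 2's 82.2%. Their median signal was 153, against 139 over all bound X coding genes. As elsewhere, a gene counts as bound also where the summit is nearer to the TSS of another gene.

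All 11 X genes with mRpL or mRpS names, which encode mitochondrial ribosomal proteins, were bound, with signals from 73.2 at mRpL33 to 238 at mRpL16. The 8 bound in replicate 1 left out mRpL30, mRpL49 and mRpL33, which were among the weaker ones. Of 14 cytosolic ribosomal protein genes 11 were bound in the main list, 4 in replicate 1 and 11 in replicate 2. These 11 were not all the same genes, since RpL36 was bound in the main list and not in replicate 2, and RpS19a in replicate 2 and not in the main list. RpL22 had 322 and RpL17 had 196, while RpS19a, RpL7A and RpL35 were unbound in the main list. Of the unbound genes, RpS19a and RpL35 were bound in the conservative list and RpL7A in no list. The summit counted for RpL22 was nearer to lncRNA:CR44966. RpS14a and RpS14b are near-identical copies, so their 116 and 193 are uncertain. The summit counted for RpS14a lay 469 bp upstream of the RpS14a TSS and was nearer to Dhdds.

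Respiratory chain subunits were bound at 11 of 13 genes. ND-ASHI of complex I had 393, but its summit was nearer to Fum1. COX6B of complex IV had 378 from the peak that it shares with its neighbours. ND-B18 had 301, with 134 in replicate 1 and 172 in replicate 2. ATPsyndelta and SdhBL were unbound in every list.

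All 5 nucleoporin genes were bound, from Nup153 at 56.8 to Nup205 at 363. So were all 4 aminoacyl-tRNA synthetase genes (192 at ArgRS to 265 at LysRS), all 4 spliceosome genes (157 at Prp5 to 272 at U2af50) and all 5 genes of Mediator and general transcription factors (96.1 at MED22 to 225 at Taf9). The summits counted for Nup153, LysRS and U2af50 were nearer to their neighbours CG9784, Hecw and PIG-Q. Of 6 proteasome genes 4 were bound, Rpt4 with 496 from a summit nearer to mldr, and the unbound ones were Rpn13R and Prosbeta2R1. Neither V-ATPase gene, Vha36-3 or VhaAC39-1, was bound. Rab40, a small GTPase, was unbound in the main list and bound in the conservative list and in both replicates' lists.

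The lists of translation initiation factors, DNA replication, autophagy and chaperones held few X genes. The initiation factors had 4 of 7 bound, with eIF2Bepsilon at 345, and eIF3g1, eIF5 and eIF4E7 unbound. Replication genes had 3 of 4 bound, with Psf3 of the GINS complex at 152 and the helicase subunit Mcm6 at 102. Hsp60A had 99.5 and CCT6 had 120, and the chaperone Hsc70-3 was bound in replicate 2 only. The summits counted for eIF2Bepsilon and CCT6 were nearer to their neighbours Ocrl and CG8944.

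Of 19 chromatin regulator genes 15 were bound (78.9%), with 11 in replicate 1 and 14 in replicate 2. All X coding genes had 47.4% bound, with 33.5% in replicate 1 and 45.9% in replicate 2, and 5 of the 8 autosomal genes of the list were bound. Beside ph-p, Top1 (topoisomerase) had 365, e(y)2 (a subunit of the SAGA complex) 343, trr (a histone methyltransferase) 238 and Taf9 225. The peaks of e(y)2 and trr were nearer to CG11695 and mRpL16. Rbf, e(y)3, Myc and br were unbound.

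Genes of dosage compensation and sex determination were of middling signal where bound. The acetyltransferase gene mof had 206, with 73.8 in replicate 1 and 127 in replicate 2. The splicing factor gene snf had 164, with 63.5 and 85.0, and it and mof were in both replicates' lists. The sex determination gene Sxl had 100, with 23 in replicate 1 and 77.9 in replicate 2, its summit 383 bp after a TSS.

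For the roX RNAs, lncRNA:roX1 had 108, with 36.9 in replicate 1 and 67.3 in replicate 2, and lncRNA:roX2 had 67.6, with 19.3 and 46.7. Neither was in the list of replicate 1. The X-linked sex signal genes run, sc, sisA and upd1 were unbound in the main list and in both replicates' lists. Thus 5 of 9 genes of this list (55.6%) were bound in the main list and in replicate 2, and 2 of 9 in replicate 1. Over all X coding genes 47.4% were bound, with 33.5% in replicate 1 and 45.9% in replicate 2. Of all 483 X ncRNA genes, the class that holds the roX RNAs, 13.9% were bound in the main list.

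Transcription factors of patterning and tissue identity were bound at 4 of 27 genes, 14.8%, against 47.4% of all X coding genes. None of the 27 was bound in replicate 1 and 2 were in replicate 2. The 4 were btd with 69.2, Lim1 with 55.9, unc-4 with 55.7 and sd with 52.6, all below the lower quartile of X promoter peaks (77.8). The unbound ones included ac, acj6, ase, bi and B-H1. Of the 19 genes of the signalling pathways 13 were bound (68.4%), with 8 in replicate 1, 11 in replicate 2 and 9 in the conservative list.

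Among the signalling genes the kinase genes sgg (312) and fu (187) and the phosphatase gene csw (168) had the highest signals. Dsor1, a MAP kinase kinase, had 133 and the receptor gene fz3 had 125. The receptor genes N (63.4) and dome (71.3) and the kinase gene hop (72.3) were lower. The ligand genes upd1, upd2 and upd3 and the secreted inhibitor sog were unbound, as were arm and sev.

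Genes of particular tissues were bound at 29 of 136, 21.3%, with 11.0% in replicate 1 and 18.4% in replicate 2. Over all X coding genes these shares were 47.4%, 33.5% and 45.9%. Of the autosomal genes of the same lists 13 of 349 (3.72%) were bound, but 205 of these are chemoreceptor and odorant-binding genes and 131 cuticle and chitin genes, so the make-up differs. None of 31 chemoreceptor and odorant-binding genes, none of 16 eggshell, yolk and glue genes and none of 20 Stellate and Sdic genes was bound in any list, which allows shares of up to 9.68%, 18.8% and 15% (3 genes each). The 0 of 31 included Gr10a, Gr10b, Gr2a, Gr5a and Gr8a, and the 0 of 16 included Cp36, Cp38, Cp7Fa, Cp7Fb and Cp7Fc. Stellate and Sdic are repeated genes: at 18 of the 20, at least 50% of the 50-base stretches within 100 bp of the TSS occur elsewhere in the genome, so a missing peak there is uncertain. The only bound gene of 15 for cuticle and chitin was Cht11 (282), whose summit was nearer to CG4558. The other bound genes of the 29 were in the neuronal and channel list (17) and the germline and meiosis list (11).

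Neuronal and channel genes were bound at 17 of 37, 45.9%, close to the 47.4% of all X coding genes. The elav peak (459) and that of dnc, a cAMP phosphodiesterase (372), were the strongest, followed by Syx4 (250), dpr14 (215) and Ptp4E (206). The peak counted for dpr14 was nearer to spidey. Replicate 1 bound 6 of the 37 and replicate 2 bound 16. The ion channel genes cac, para, Sh and SK and the gene Nmdar2 were unbound.

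Germline and meiosis genes were bound at 11 of 17 (64.7%), against 47.4% of all X coding genes. Each replicate's list bound 8 of the 17, against 33.5% of all X coding genes in replicate 1 and 45.9% in replicate 2. The highest were fs(1)Yb (379), mei-41 (377), fs(1)K10 (328), nod (250) and fs(1)N (246). The first 3 of these share a peak with a nearer neighbour, CG2701, TH1 or kz. Among unbound genes were fs(1)M3, fs(1)Ya, mei-P26, otu and ovo.

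Classical X-linked loci, known from mutations, were close to the average of X, with 17 of 37 bound (45.9%). The highest bound ones were dnc (372), cm (332), car (329), tko (323) and g (165), where car, cm and g act in vesicle traffic and tko, which has no mRp name and was not in that list, is a mitochondrial ribosomal protein. The unbound ones included w, y, v, sn, f, ct and lz. The gene car had 138 in replicate 1 and 189 in replicate 2. The summit counted for cm was nearer to sloth1.

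**Figure D4:**
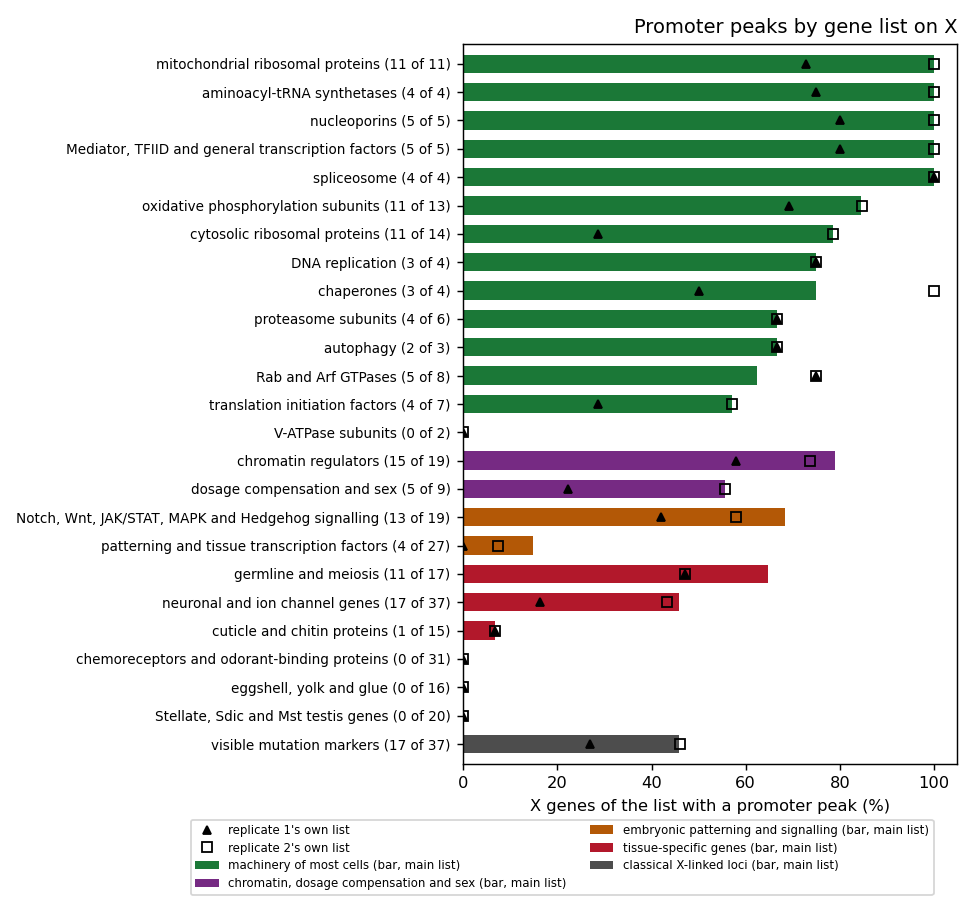
Share of the X genes of each list with a promoter peak in the main list (bars, coloured by group, with counts beside the names) and in the lists of replicate 1 (triangles) and replicate 2 (squares). The machinery lists reach up to 100%, as for the 11 genes with mRpL or mRpS names, and the chemoreceptor, eggshell and Stellate lists stand at 0.

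Bound genes were spread along the whole of X but unevenly. In 24 bins of 1 Mb, the bound share of coding genes had a median of 47.3%, with 9 bins over 50% and 3 under 30%. The highest was the bin from 6 to 7 Mb, with 64 of 111 genes bound (57.7%, 39.6% in replicate 1 and 58.6% in replicate 2). The lowest was the bin from 22 to 23 Mb, with 10 of 44 (22.7%, 9.09% in replicate 1 and 22.7% in replicate 2). The bins from 20 to 21 Mb (23.5%) and from 14 to 15 Mb (27.3%) were also low. The last bin, from 23 Mb to the end of the assembled arm, had 7 of 15 bound (46.7%), close to the median.

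Repeated sequence touched the lowest bin. Between 22 and 23 Mb, 21 of the 44 genes had at least 50% repeated 50-base stretches around the TSS, and 10 of the other 23 (43.5%) were bound. From 20 to 21 Mb 13 of 81 genes were of that kind, and 19 of the other 68 (27.9%) were bound, so that bin stayed low without them. Over X as a whole 90 coding genes had such a TSS, 6 of them bound, and 49.1% of the other 2106 were bound.

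In windows of 50 neighbouring coding genes the bound share ran from 18 to 82.0%, from 10 to 70.0% in replicate 1 and from 14.0 to 84.0% in replicate 2. The median signal of the peaks of a bin ran from 80.3 in the lowest bin of bound genes to 160 in the bin from 1 to 2 Mb. The number of promoter peaks per bin ran from 8 to 80. Neighbouring summits were a median of 5.29 kb apart, against 4.89 kb on the autosome arms.

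**Figure D5:**
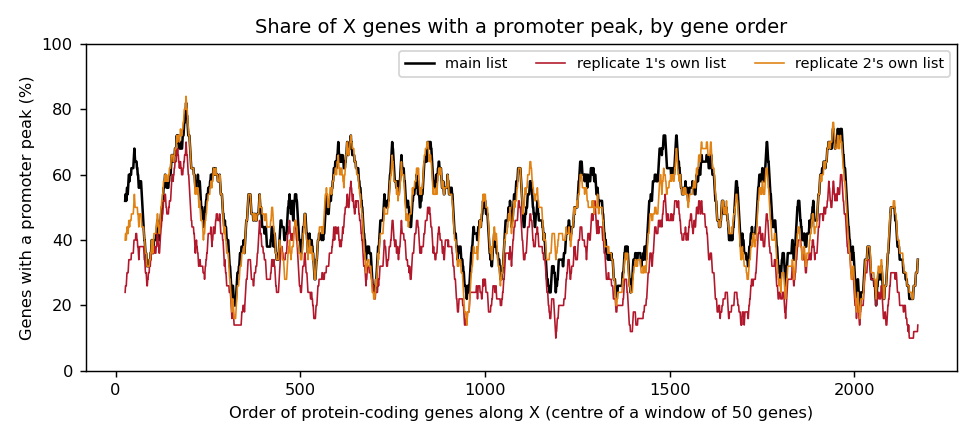
Share of X protein-coding genes with a promoter peak in windows of 50 neighbouring genes, by gene order along X, in the main list and in each replicate's own list. The main list runs from 18 to 82.0% around a median of 48.0%, and replicate 1 has the lowest median (34.0%, against 46.0% in replicate 2).

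Bound genes often stood next to each other, in part by the rule, since 1 summit can bind both genes of a divergent pair. X had 341 runs of bound coding genes with a mean length of 3.05, and 70 of them held 5 or more, with 473 genes or 45.4% of the bound ones. This share was 53.6% on 2L, 52.7% on 2R, 53.5% on 3L and 49.3% on 3R. In replicate 1 it was 22.2% on X, against 33.1 to 40.8% on the autosome arms, and in replicate 2 41.2% on X, against 49.4 to 53.6% on them. X thus had the lowest share of the 5 arms in each of these lists. The longest bound run on X held 14 genes, against 16 to 26 on the autosome arms. In replicate 1 it also held 14, against 15 on 2L, 11 on 2R, 12 on 3L and 19 on 3R, so X was not the lowest there.

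There were 2 X runs of 14 genes. One ran from Lamtor5 to mRpL16 over 31.3 kb with 11 peaks, through deltaCOP (a coat protein subunit), MED18, Vps26 and trr. Its strongest peak, with 310, was counted for Pex5, a peroxisomal import receptor, but its summit was nearer to CG14803. All 14 genes were bound in both replicates' lists, and 8 of them had a divergent partner. The other ran from l(1)10Bb to dlg1 over 44.4 kb with 13 peaks, through Kap3, dsh, hop and Tim8, and its strongest peak was at l(1)10Bb with 261. Of its genes 13 were bound in replicate 1 and 12 in replicate 2, and 6 had a divergent partner.

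The next runs were spdi to Hmt4-20 with 13 genes, Scamp to mh with 11 and Rtca to D2hgdh with 10. In these runs 9, 9 and 2 genes had a divergent partner. The run from spdi held RpL36, Dredd and su(sable), with Hmt4-20 the strongest at 326, and 6 of its genes were bound in replicate 1. The run from Rtca held csw, ph-d and ph-p over 69.1 kb.

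The longest unbound stretch on X held 26 genes, against 117 on 2L, 39 on 2R, 31 on 3L and 29 on 3R. It ran from CG45486 to Rab35 over 250 kb, and no gene of it was bound in either replicate. It held Or19a and Or19b, the dopamine receptor gene Dop2R and fd19B. At 12 of the 26 genes the sequence around the TSS was repeated, so absence at these is uncertain, and the other 14 were also unbound.

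These stretches count coding genes in the order of their 5′-most TSS. Peaks at non-coding genes, or at other start sites of bound genes, can therefore lie inside them. The stretch from Tak1 to r-cup held 23 genes over 501 kb, with run, RunxA, RunxB and shakB, and 3 of them had repeated sequence at the TSS. A promoter peak at lncRNA:CR43838 (85.2) lay inside it. The stretch from DIP1 to CG41562 held 22 genes over 621 kb, and 21 of them were repeated. The promoter peak at lncRNA:flam (98.4) lay inside this stretch. Stretches of 16 genes ran from CG14630 to CG11382, none of them repeated, and from CG14265 to CG10804, with the glue genes ng1 to ng4, Pig1 and Sgs4, and with Myc. Inside the last of these stretches lay the dnc peaks of 372, 225 and 146, and peaks at lncRNA:CR46243 (197) and tRNA:Gln-TTG-2-1 (56.0). The widest gap between neighbouring X promoter peaks, 813 kb, lay between lncRNA:flam and CG14621.

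Some genes held several promoter peaks. Of the bound X coding genes 818 had 1 peak within 500 bp of a TSS, 223 had 2 or more and 17 had 3 or more. As given above, weak peaks often lie within 500 bp of a stronger X summit, so several peaks need not be separate sites. Ptpmeg2, a protein tyrosine phosphatase with 6 TSSs, had 4 peaks, of 347, 253, 186 and 140. CG4199, bbx and Pfrx also had 4 peaks each, but the weakest CG4199 peak (19.2) overlapped its peak of 122. The gene dnc, with 9 TSSs, had 3 peaks of 372, 225 and 146, and Top1 had 3 of 365, 176 and 93.2.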

How the data were processed

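MBD-R2-eGFP ChIP-seq was analysed from 2 biological replicates of whole embryos. Per the labels, chromatin fragments of 200 to 800 bp were made by sonication and pulled down through GFP, while the antibody field names MBD-R2. The deposited files are peak lists on dm6, per the labels. The sources used here do not give the aligner, the peak caller or the depth. The signal is the authors' deposited value for each peak. The deposited score is at least 830 in every thresholded list, and the rankings carry the −log10 of the irreproducible discovery rate, as deposited by the authors, which was not tested here. The score of the main list has its highest value, 1000, at 6395 peaks.

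Genes and TSSs came from Ensembl release 115 on the same assembly, without transposable elements. RefSeq sequence was used after checking that peaks and genes lie within its chromosomes. Replicate values are those of the nearest overlapping peak (at least 1 bp) in that replicate's own ranking, which the threshold has not filtered. In the main list, 43 repeated intervals with another summit were kept as separate summits, except in 1 alternative. Divergent partners have opposite-strand start sites within 500 bp. Calls were made with Python 3.11.15, numpy 2.4.6 and pandas 2.3.3, and tested on simulated peaks. Lists are described by counts and medians and were not tested.

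Named genes were the 20 strongest peaks, up to 5 bound members by signal and up to 5 unbound members by name per list, the 5 longest runs and unbound stretches, and the 3 peaks on each side of the 500 bp limit. Others (among them w, y, v, sn, f, para, Sh and SK) were picked with their values known. The members, lists and strings were chosen with earlier results of these data known, and genes listed in the wrong list were removed after values were seen. The printed promoters were likewise picked with values known.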

Additional observations from a re-analysis of the deposited data

How the results depend on the processing

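The 17 results were recomputed under 10 alternatives, 2 of them chosen after seeing the data (TSSs of protein-coding genes only, and TSSs of transposable elements added). Of the recomputed values, 135 stayed within the spread between replicates (or 1.5 times for counts), 34 moved by more and 1 changed sign. The one that changed sign was the log2 difference in signal on X between peaks whose nearest TSS has a divergent partner and other peaks. It was 0.09 in the main list, and 0.14 and -0.03 in the lists of replicate 1 and replicate 2; the cause was not tested. The X minus autosome log2 difference was -0.27 in the conservative list, -0.30 with a TSS window of 250 bp, -0.22 with 1000 bp, -0.27 at the 5′-most TSS and -0.27 with coding TSSs only, so it kept its sign in all 10. The median X signal was 132 in the conservative list and 129 among peaks of the highest score, which are stronger by construction. The share of X promoter peaks whose nearest TSS has a divergent partner was 30.6% in the main list, 32.6% in the conservative list, 31.6% at the highest score, 33.0% at 250 bp, 30.9% at the 5′-most TSS and 31.4% with coding TSSs. The bound share of chromatin, dosage and sex genes was 57.7% in the conservative list. That of patterning and signalling genes was 21.7% there and 28.3% at the highest score, and that of tissue-specific genes 14.7% there and 15.4% at 250 bp. The causes were not tested. With 1 replicate left out at a time, by taking the other's own list, X promoter peaks numbered 620 to 1001, 73.1 to 87.8% of X peaks, and 33.5 to 45.9% of X coding genes were bound. The X excess of bound genes ran from 0.0652 to 2.76 percentage points, and the X median signal from 62.1 to 76.0. The log2 difference ran from -0.25 to -0.22 and the divergent share from 31.7 to 32.1%. Bound shares ran from 61.1 to 82.2% for machinery, 50 to 65.4% for chromatin, dosage and sex, 17.4 to 28.3% for patterning and signalling, 11.0 to 18.4% for tissue-specific genes and 27.0 to 45.9% for classical loci. The highest 1 Mb bin ran from 39.6 to 58.6% and the lowest from 9.09 to 22.7%. No paired analysis was possible because there is 1 group.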
